A study of Mus musculus with 5 samples.

Results

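The 10 genes described here encode enzymes that handle hydrogen peroxide and its relatives in the mouse thyroid: the glutathione peroxidases Gpx1, Gpx3 and Gpx4, the peroxiredoxins Prdx1, Prdx5 and Prdx6, catalase (Cat), the superoxide dismutases Sod1 and Sod2, and the thioredoxin reductase Txnrd1. They were chosen by name, and 10 of 10 were found among the 16413 genes listed. All 5 libraries come from LSL-BrafV600E;TgCreERT2 mice, in which tamoxifen activates a Cre recombinase driven by the thyroglobulin promoter, and both groups had tamoxifen for 1 week at 8 weeks of age and are labelled as BRAFV600E mutated. The high fat diet group has 3 libraries (replicates 2, 9 and 10) and the chow group has 2 (replicates 2 and 8). Both diets are given as lasting 12 weeks, and the treatment text shared by both groups puts the start of high fat feeding at 10 weeks of age and its end at 22 weeks. No group without the mutation is used here. Total RNA of the thyroid gland was sequenced in a study of thyroid cancer under nutrient excess. The labels do not state whether the replicate numbers stand for separate animals, and the p-values cover only the spread among the libraries, which may be technical.

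Thyroid follicular cells make hydrogen peroxide on purpose. The dual oxidases release it at the apical membrane, where it is used to attach iodide to thyroglobulin, so the gland has to remove the excess. Glutathione peroxidases reduce peroxides with glutathione, and Gpx1, Gpx3, Gpx4 and Txnrd1 are selenoproteins, with the rare amino acid selenocysteine in the active site. Peroxiredoxins use a cysteine and are recharged in large part by thioredoxin, which Txnrd1 keeps reduced. Catalase breaks peroxide down inside peroxisomes. Sod1 and Sod2 work a step earlier and produce hydrogen peroxide from superoxide, so the set includes enzymes that make peroxide as well as enzymes that remove it.

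Total counts per library were between 43494747 and 52663677. The thyroid marker Tg, the hormone precursor, was abundant and took 17.06%, 14.93% and 10.95% of all counts on the high fat diet and 18.72% and 22.11% on chow, without overlap. High fat diet replicate 10 stood apart from the other libraries. Its 7 airway and mucous gland markers summed to 6217 CPM, of which Muc5b alone was 4638 CPM, against sums of 626 to 1236 CPM elsewhere. Its log2 counts correlated at r = 0.973 to 0.979 with the other libraries, against 0.983 to 0.988 among the rest (description, across genes).

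Peroxiredoxin and glutathione peroxidase transcripts dominated the set. FPKM, a fragment count scaled to transcript length and sequencing depth, is used here to compare genes with each other. Prdx1, the main cytosolic peroxiredoxin, was highest at 296 ± 13.7 FPKM (SD over the 5 libraries), with 318, 281 and 294 FPKM on the high fat diet and 297 and 292 FPKM on chow. Gpx4, which reduces lipid peroxides within membranes, followed at 274 ± 21.7 FPKM (SD, n = 5), with 309, 254 and 272 FPKM on the high fat diet and 275 and 259 FPKM on chow. The ranges of these leading genes overlapped, although Prdx1 lay above Gpx4 in each of the 5 libraries by a ratio of 1.03 to 1.12. By mean FPKM they were 121st and 131st among all genes listed, and together they made up 53.9% to 56.5% of the summed FPKM of the 10 enzymes.

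Next came Sod1, the cytosolic copper and zinc enzyme, at 171 ± 7.43 FPKM, and Prdx5, found in mitochondria, peroxisomes and cytosol, at 115 ± 7.42 FPKM (SD, n = 5 each). Sod1 lay wholly below Gpx4 and wholly above Prdx5. A drop by a ratio of 2.44 separated Prdx5 from Gpx1, the cytosolic glutathione peroxidase, at 47.1 ± 5.57 FPKM. Gpx1 lay above Cat (35.5 ± 1.77 FPKM) in every library, and Cat above Txnrd1 (27.6 ± 1.52 FPKM). The last 4 genes were not separated from their neighbours: Txnrd1, Gpx3 (26.4 ± 4.12 FPKM), the mitochondrial dismutase Sod2 (22.4 ± 0.903 FPKM) and Prdx6 (21.6 ± 2.72 FPKM) overlapped in range. The first 6 places were held by the same genes, in the same order, in all 5 libraries. The 4 leading enzymes made up 81.6% to 84.3% of the summed FPKM on the high fat diet and 82.1% to 82.6% on chow. Prdx1 alone held 28.7%, 28.3% and 28.1% in the high fat diet libraries and 29.2% and 28.7% in the chow libraries. On FPKM, Sod1 exceeded Sod2 by a ratio of 7.77, 7.23 and 7.87 on the high fat diet and of 7.68 and 7.55 on chow. This ratio depends on the lengths implied by FPKM, 662 bases for Sod1 and 3908 bases for Sod2. In mean CPM, without length, Sod1 and Sod2 stood at 113 and 87.2 on the high fat diet and at 114 and 88.4 on chow.

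**Figure D1:**
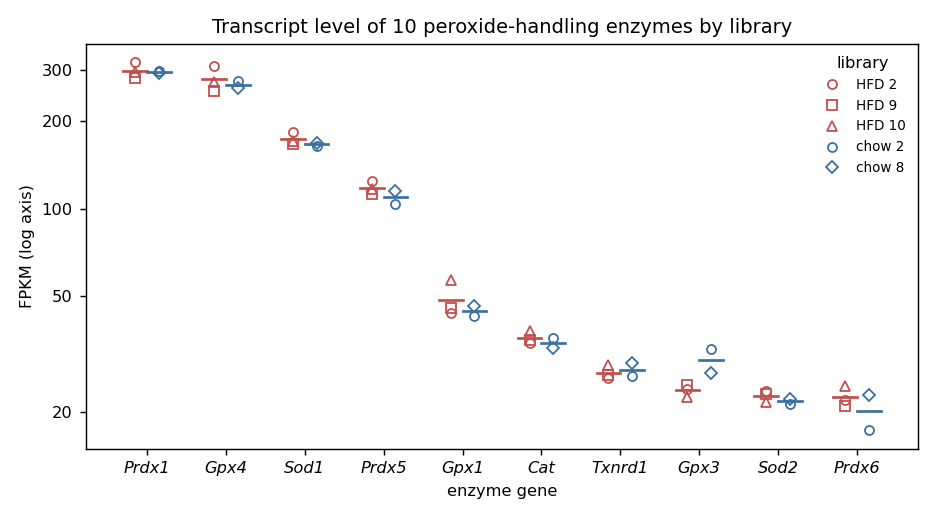
FPKM (log axis) of each enzyme gene in each library, ordered by mean level, with the high fat diet (HFD, red) left of chow (blue), 1 symbol per library and bars at the group means. Prdx1 and Gpx4 lie between 254 and 318 FPKM, Txnrd1, Gpx3, Sod2 and Prdx6 between 17.4 and 33.1 FPKM, and Gpx3 is the gene whose groups do not overlap.

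Between the diets, 9 of the 10 enzymes had overlapping values and small differences with narrow intervals, and Gpx3 was lower in each high fat diet library. With edgeR's quasi-likelihood test (Benjamini-Hochberg over 15765 genes), 0 of the 10 enzymes passed an adjusted p of 0.05 in either direction. Over all genes 0 were higher (0%) and 0 lower (0%) by that test, with 465 higher (2.95%) and 390 lower (2.47%) at an unadjusted p under 0.05, where 1 enzyme, Gpx3, was among the lower. DESeq2 called 49 genes higher (0.305%) and 47 lower (0.292%), with 0 of the enzymes among them. For all 10 enzymes the 95% interval of the fold change lay inside 2-fold either way, as it did for 78.4% of all genes and for 96.3% of the 4482 genes within the enzymes' range of mean CPM. The median absolute log2 fold change was 0.031 over the enzymes, 0.084 over those genes of like level and 0.12 over all genes tested. It moved with single libraries: it was 0.086 over the enzymes without high fat diet replicate 2, against 0.10 over the genes of like level, and 0.086 without chow replicate 2, against 0.0998. With library totals alone these were 0.064 and 0.098. The median coefficient of variation over the 5 libraries was 7.74%, against 8.58% and 12.5%.

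For the comparison of diets the values are CPM, counts scaled to a common library size with TMM factors. Gpx3 is the secreted member of the family, known from blood plasma. It stood at 38.0, 37.8 and 32.9 CPM on the high fat diet and at 51.9 and 45.2 CPM on chow. Each high fat diet library lay below both chow libraries, an arrangement found for 10.3% of all genes in that direction and for 10.6% in the other. The fold change was 0.746 (95% interval from 0.618 to 0.902), or -0.42 on the log2 scale (SE 0.12). Gpx3 was 170th of the 15765 genes by p and did not pass (edgeR unadjusted p = 0.00698, adjusted p = 0.648). Without chow replicate 2, its highest library, the log2 value was -0.32 and the unadjusted p was 0.077. Without high fat diet replicate 10, its lowest, these were -0.36 and 0.0128 in edgeR, so the difference was of similar size without the library that stood apart.

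Gpx3 is also made by fat tissue and other tissues, and adipocyte markers had lower sums in the same libraries. Of the 8 adipocyte markers, 0 passed in edgeR, as over all genes, and 7 were below 0, where 47.3% of all genes were. Of the 8, 6 did not overlap between the diets, in the lower direction, where 10.3% of all genes did so. The summed level of the 8 was 79.9, 82.9 and 57.3 CPM on the high fat diet and 109 and 135 CPM on chow. Between the chow libraries the order differed, with Gpx3 higher in replicate 2 and the adipocyte sum higher in replicate 8. Other marker sums did not overlap either: the thyroid follicular sum, almost all Tg, was lower and the airway sum higher on the high fat diet. Among the follicular markers Tg, Tshr and Pax8 were lower without overlap, and Slc5a5, Nkx2-1 and Foxe1 higher. The nearest airway sums were 814 CPM in high fat diet replicate 2 and 811 CPM in chow replicate 8. The mucous gland marker Muc5b gave 106 and 92.4 CPM of these, so the separation rested on it. The part of adipocyte RNA, or of RNA from other cell types, in the Gpx3 values was not tested. In bulk tissue, fewer cells of a type and less RNA per cell cannot be told apart.

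Gpx1 and Gpx4 overlapped between the diets. Gpx1 stood at 47.6, 47.8 and 56.8 CPM on the high fat diet and at 46.3 and 52.5 CPM on chow, a log2 fold change of 0.038 with a 95% interval from -0.25 to 0.32. Its highest value was in high fat diet replicate 10. Gpx4 stood at 308, 244 and 249.7 CPM on the high fat diet and at 272 and 270.1 CPM on chow. Its log2 fold change was -0.020 with an interval from -0.31 to 0.27, and the chow values lay between those of high fat diet replicate 2 and the other two. The ratio of Gpx1 to Gpx3, taken on FPKM, was 1.82, 1.84 and 2.51 on the high fat diet and 1.30 and 1.69 on chow, so the groups did not overlap. This ratio was formed after the values were seen and was not tested.

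The peroxiredoxins and their partner Txnrd1 also overlapped. Prdx1 stood at 468, 399 and 399 CPM on the high fat diet and at 434 and 448 CPM on chow, a log2 fold change of -0.065 with an interval from -0.34 to 0.21. High fat diet replicate 2 exceeded both chow values, and replicates 9 and 10 were under them. Prdx5 stood at 89.1, 77.6 and 77.1 CPM on the high fat diet and at 73.9 and 85.9 CPM on chow, a log2 fold change of 0.025 (interval from -0.25 to 0.30). Prdx6, a peroxiredoxin with a single active cysteine and a phospholipase activity, stood at 54.9, 50.2 and 56.0 CPM on the high fat diet and at 42.7 and 59.5 CPM on chow. Its chow values lay on either side of all high fat diet values, and its log2 fold change of 0.073 had the widest interval of the 10, from -0.27 to 0.41. Without chow replicate 2 it was -0.15, and without chow replicate 8 it was 0.34, so its sign turned when chow replicate 2 was left out.

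Txnrd1 stood at 92.6, 91.6 and 95.2 CPM on the high fat diet and at 93.8 and 109 CPM on chow. Chow replicate 8 was highest and the other 4 libraries were close together, and the log2 fold change of -0.12 (interval from -0.37 to 0.12) was -0.0072 without that library. Cat was the most even gene of the set, with a coefficient of variation of 1.60%. It stood at 91.8, 90.8 and 92.6 CPM on the high fat diet and at 94.7 and 91.9 CPM on chow, a log2 fold change of -0.024 with an interval from -0.24 to 0.19. The groups overlapped.

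Both superoxide dismutases overlapped as well. Sod1 stood at 123, 108 and 106 CPM on the high fat diet and at 110.1 and 118 CPM on chow. Sod2 stood at 93.7, 88.5 and 79.6 CPM on the high fat diet and at 84.6 and 92.3 CPM on chow. Their log2 fold changes were -0.018 (interval from -0.27 to 0.23) and -0.019 (interval from -0.28 to 0.24), and in both genes high fat diet replicate 2 was highest and replicate 10 lowest. Over the 9 enzymes other than Gpx3 the intervals together ran from a fold of 0.775 to one of 1.33, and edgeR's adjusted p was between 0.991 and 0.996.

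**Figure D2:**
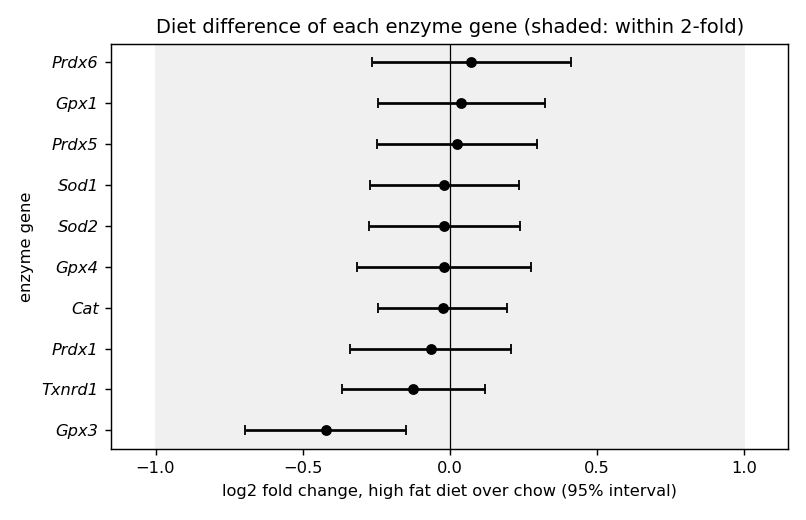
Log2 fold change of the high fat diet over chow (x axis) for each enzyme gene (y axis), with 95% intervals from edgeR and the range within 2-fold shaded. The 10 intervals lie inside the shading, and the interval of Gpx3, from -0.69 to -0.15, is the one that leaves out 0.

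The sign of these small differences depended on the scale. With TMM factors, 3 enzymes were above 0 and 7 below. Above 0 were 52.7% of all genes and 45% of the genes within the enzymes' range of mean CPM. With library totals alone, 8 enzymes were above and 2 below, and mean FPKM gave the same split. The signs of all genes were not counted on these scales. In the authors' deposited table of normalized values, 2 enzymes were higher and 8 lower in the high fat diet group. The lowest adjusted p of the enzymes there was 0.971. That was also the lowest over all genes in the authors' comparison, and 0 genes were under 0.05. Gpx1, Gpx3, Prdx6 and Txnrd1 had 1 sign on all 4 scales, with Gpx3 and Txnrd1 lower and Gpx1 and Prdx6 higher. The authors' deposited table lists Gpx3 with a fold of 1.33, signed as chow over the high fat diet, and an unadjusted p of 0.122. The median over all genes moved from 0.012 with TMM factors to 0.097 with library totals, and that of the enzymes from -0.019 to 0.063, so both medians moved up together.

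**Figure D3:**
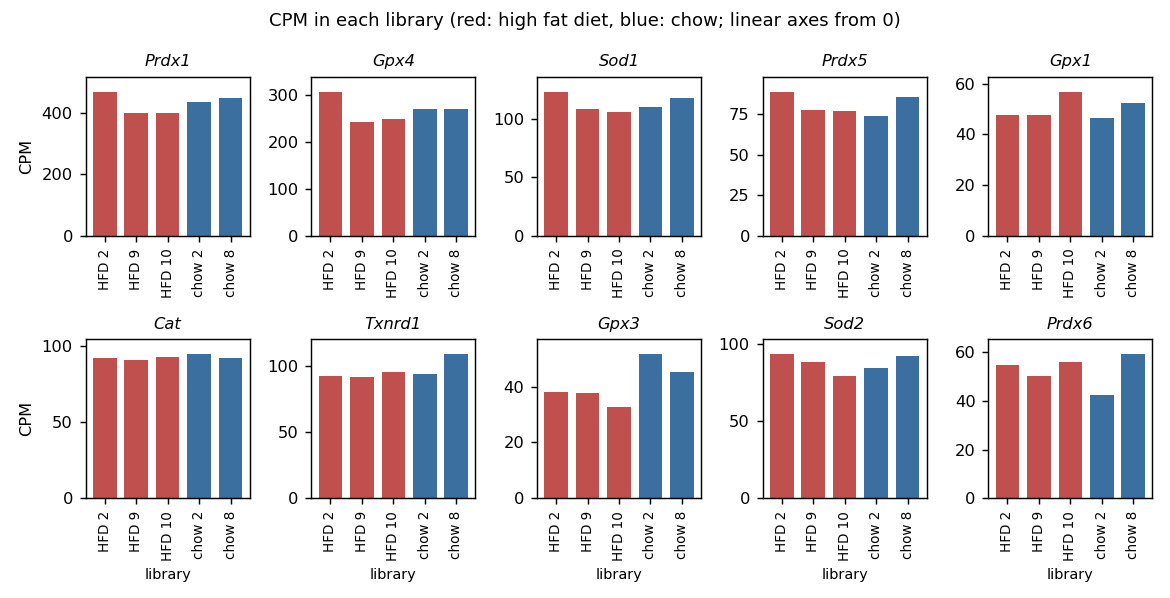
CPM of each enzyme gene (y axes, linear from 0) in the 3 high fat diet libraries (red) and the 2 chow libraries (blue) on the x axis. Cat is even at 90.8 to 94.7 CPM, Gpx3 is lower in each red bar than in both blue bars, and Prdx1, Gpx4, Sod1, Prdx5 and Sod2 peak in high fat diet replicate 2.

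With 10 enzymes and 5 libraries, some must share the library of their highest or lowest value, so such sharing is no trait of the set. High fat diet replicate 2 held the highest CPM of 5 enzymes (Gpx4, Prdx1, Prdx5, Sod1 and Sod2) and the lowest of 0, while replicates 9 and 10 held 4 and 3 of the lowest values. The shares of all genes with their highest or lowest value in each library were not counted. On the log2 CPM scale the median deviation of the enzymes from their own means was 0.084 in high fat diet replicate 2. It was -0.065 in replicate 9 and -0.076 in replicate 10, and -0.038 and 0.072 in chow replicates 2 and 8. The medians of all genes, between -0.0033 and 0.010, are held near 0 by the scaling and the centring. They are therefore no measure of how far 10 genes move. With profiles centred on their means over the 5 libraries, the genes at the smallest root mean square distance from Prdx1 were Dph6 (0.0097), Gspt1 (0.014), Lias (0.016), Uba2 (0.018) and Tmem208 (0.018), in log2 units. Sod1 was 46th by this distance (0.033) and Gpx4 128th (0.043), while Gpx3 was 8556th (0.20). These distances describe 5 libraries.

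Part of the set is known to be driven by NRF2, a transcription factor that binds antioxidant response elements, so the RefSeq promoters (GRCm38.p6) were searched for the core of that element, TGACNNNGC, on both strands of the 250 bases before each start. Windows were read for 9 of the enzymes (not for Prdx6), 14 windows in all. The core occurred at 3 genes, once each, and in 10.2% of the 32851 promoter windows of all genes. The matches are shown with 20 bases on either side, on the plus strand, which is the strand of each gene, and the capitals mark the core, which reads here as its reverse complement GCNNNGTCA.
Prdx1, chr4:116685446-116685494: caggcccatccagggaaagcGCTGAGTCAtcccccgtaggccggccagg
Txnrd1, chr10:82859094-82859142: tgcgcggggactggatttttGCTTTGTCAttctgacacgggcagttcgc
Sod1, chr16:90220686-90220734: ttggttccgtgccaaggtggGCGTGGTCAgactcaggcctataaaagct
The window at Txnrd1 lies inside the span of the gene, before another annotated start. The match at Prdx1 also holds TGANTCA, the site of AP-1 factors, which occurs in 6.75% of all windows and, among the enzymes, at Prdx1 alone. The 3 genes with a match had log2 fold changes of -0.065, -0.12 and -0.018 in the order shown, and none passed in edgeR. A match in letters is no measured binding site.

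The edgeR test called 0 of all 15765 genes, so 0 calls in a gene list is no trait of that list. Over all genes, 52.7% were above 0. Of 12 measured NRF2 pathway genes, 0 passed in either direction in edgeR, 5 were above 0 and 7 below. Their median was -0.014 on the log2 scale, against 0.012 over all genes. Of the 12, 3 did not overlap in the lower direction (Nqo1, Gclm and Gsta4) and 1 in the higher (Hmox1). Over all genes, 10.3% and 10.6% did so. Nqo1, a quinone reductase and a classic NRF2 target, stood at 5.68, 6.59 and 6.11 CPM on the high fat diet and at 8.78 and 8.84 CPM on chow, without overlap, and did not pass (log2 fold change -0.52, edgeR adjusted p = 0.738). Hmox1, heme oxygenase, chosen here after its values were seen, was at 0.57 and was carried by high fat diet replicate 10, with 32.6 FPKM there, against 13.7 and 14.1 FPKM in the other high fat diet libraries and 12.8 and 12.5 FPKM on chow. That library also had the highest airway, macrophage and neutrophil sums, whose part in this was not tested. Slc7a11, which imports cystine for glutathione, had 0.24, Cbr1 had 0.25 and Gsta4 had -0.21. Leaving out chow replicate 2 or chow replicate 8 gave 0.052 or 0.45 for Slc7a11 and 0.11 or 0.40 for Cbr1. Of the 12 genes of glutathione synthesis and recycling 0 passed either, and 7 were above 0. In the lower direction 1 of them (Gclm) did not overlap, where 10.3% of all genes did so. Chac1, which degrades glutathione, had 0.72 at 0.657 to 2.03 CPM, Gclm, the modifier subunit of the enzyme that starts glutathione synthesis, had -0.15, and G6pdx, a source of NADPH, had -0.15. Chac1 had 0.38 without high fat diet replicate 9, 1.11 without chow replicate 2 and 0.32 on log2(FPKM + 1), and G6pdx had -0.26 without chow replicate 2 and -0.039 without chow replicate 8.

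Some other enzymes of the same families had larger fold changes, in both directions. Of the 9 measured, 0 passed in edgeR, as over all genes, and 6 were above 0, where 52.7% of all genes were. In the higher direction 3 did not overlap (Txnrd3, Sod3 and Gpx8) and in the lower 1 (Gpx2), where 10.6% and 10.3% of all genes did so. Gpx2, the glutathione peroxidase typical of gut epithelium, stood at 20.8, 19.8 and 28.6 CPM on the high fat diet and at 36.7 and 37.9 CPM on chow, or -0.69 on the log2 scale (SE 0.17, edgeR adjusted p = 0.488). It lay lower in every high fat diet library, as Gpx3 did. Txnrd3, a reductase of thioredoxin and glutathione best known from testis, stood at 43.3, 39.2 and 48.8 CPM on the high fat diet and at 25.6 and 27.7 CPM on chow. Its difference of 0.72 on the log2 scale (SE 0.13) did not pass in edgeR (adjusted p = 0.256), whereas DESeq2 gave 0.71 with an adjusted p of 0.000899. The other 13 alternatives gave adjusted p between 0.239 and 0.832 (edgeR and limma). Without high fat diet replicate 10 the value in edgeR was 0.63. Sod3, the extracellular superoxide dismutase, stood at 84.4, 77.2 and 92.6 CPM on the high fat diet and at 59.0 and 66.5 CPM on chow, a log2 fold change of 0.43 (edgeR adjusted p = 0.627). Gpx8, an enzyme of the endoplasmic reticulum, had 0.13. Prdx2, Prdx3 and Prdx4, named for comparison after their values were seen, stood at 78.7, 93.2 and 36.0 FPKM on average, all below Prdx5 among the peroxiredoxins, and their log2 fold changes were 0.016, -0.037 and -0.022.

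**Figure D4:**
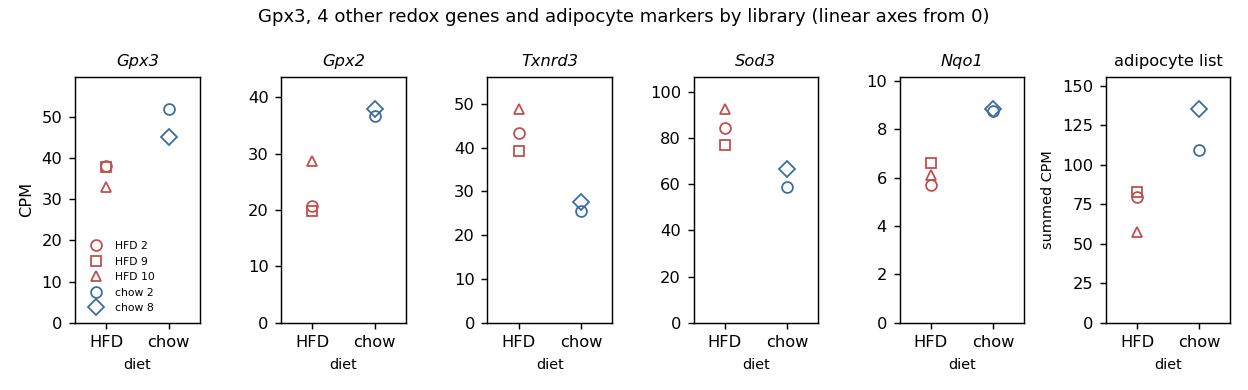
CPM (y axes, linear from 0) of Gpx3, Gpx2, Txnrd3, Sod3 and Nqo1 and the summed CPM of 8 adipocyte markers in each library, high fat diet (HFD, red) left of chow (blue). The genes shown have the smallest p of their lists, so their separation was chosen. The groups do not overlap in any panel: Gpx3, Gpx2, Nqo1 and the adipocyte sum are lower, and Txnrd3 and Sod3 higher, in the 3 high fat diet libraries. Over all genes 10.3% do not overlap in the lower and 10.6% in the higher direction. None of the 5 genes passed in edgeR, as over all genes.

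While edgeR passed 0 of all genes, 47.3% of them were below 0. Among thioredoxin and glutaredoxin partners, 0 of 11 genes passed and 9 were below 0. Their median of -0.11 on the log2 scale, in edgeR with TMM factors, was the lowest of the 8 related lists. Txn1, cytosolic thioredoxin and the substrate of Txnrd1, stood at 113, 95.1 and 97.1 CPM on the high fat diet and at 105 and 122 CPM on chow (log2 fold change -0.16). The stress-induced sestrins Sesn3 and Sesn2 had -0.18 and -0.19, and the mitochondrial glutaredoxin Glrx2 had -0.13. Of the 11 genes, 2 (Sesn3 and Glrx2) did not overlap, both in the lower direction, where 10.3% of all genes did so. Without chow replicate 8, Txn1 had -0.044, Sesn3 had -0.11 and Sesn2 turned to 0.058. Without chow replicate 2, Txn1 had -0.26 and Sesn2 had -0.41.

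Over all genes edgeR passed 0, and 47.3% were below 0. Of 11 measured genes that make peroxide, 0 passed and 8 were below 0, with a median of -0.018. Duox2, the dual oxidase of hormone synthesis, stood at 23.8, 17.2 and 13.0 CPM on the high fat diet and at 20.1 and 27.9 CPM on chow, a log2 fold change of -0.41 with an interval from -1.05 to 0.22 that is wider than that of any of the 10 enzymes. Without high fat diet replicate 2 it was -0.67, and without chow replicate 8 it was -0.15. Its mean level of 4.34 FPKM lay below that of each of the 10 enzymes. Cyba, a subunit shared by NADPH oxidases, had 0.22, and Ncf4, a subunit of the phagocyte oxidase, had 0.18. Leaving out 1 library, Cyba ran from 0.14 (without high fat diet replicate 10) to 0.37 (without high fat diet replicate 9) and Ncf4 from 0.064 (without chow replicate 8) to 0.31 (without chow replicate 2).

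Again, edgeR passed 0 of all genes, and 52.7% of all genes were above 0. Of the 10 genes for selenoprotein synthesis and selenium supply 0 passed, 6 were above 0 and the median was 0.032. One of them, Lrp2, did not overlap, in the higher direction, a share like the 10.6% of all genes. Lrp2 (megalin), a receptor that takes up selenoprotein P in kidney and also binds thyroglobulin, stood at 1400, 1545 and 1214 CPM on the high fat diet and at 1016 and 1133 CPM on chow, a log2 fold change of 0.37 (edgeR adjusted p = 0.856). Lrp8 had 0.089, Trnau1ap 0.049 and Secisbp2, which reads the selenocysteine signal, -0.058. Of 13 other selenoproteins 0 passed and 7 were below 0, and 2 (Msrb1 and Selo) did not overlap in the lower direction, where 10.3% of all genes did so. The methionine sulfoxide reductase Msrb1 had -0.22, the deiodinases Dio2 and Dio1 had -0.47 and -0.20, and Selenos had 0.13. Leaving out 1 library, Dio2 ran from -0.74 (without high fat diet replicate 9) to -0.21 (without chow replicate 2), Dio1 from -0.32 (without high fat diet replicate 2) to -0.046 (without high fat diet replicate 10) and Msrb1 from -0.30 (without chow replicate 2) to -0.15 (without chow replicate 8). The selenoproteins among the 10 enzymes comprised Gpx3 at -0.42 beside Gpx1, Gpx4 and Txnrd1 between -0.12 and 0.038. Of 16 genes of peroxisome assembly and oxidases, the compartment of Cat, 0 passed and 9 were below 0. In the lower direction 2 did not overlap (Pex3 and Pex13), where 10.3% of all genes did so. Pex3 had -0.31, Pex13 -0.27, Abcd3 -0.20 and the import receptor Pex5 0.34. Pex5 ran from 0.041 without chow replicate 2 to 0.72 without chow replicate 8, and Abcd3 from -0.30 to -0.10 without the same libraries. Pex13 had -0.13 without high fat diet replicate 10.

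**Figure D5:**
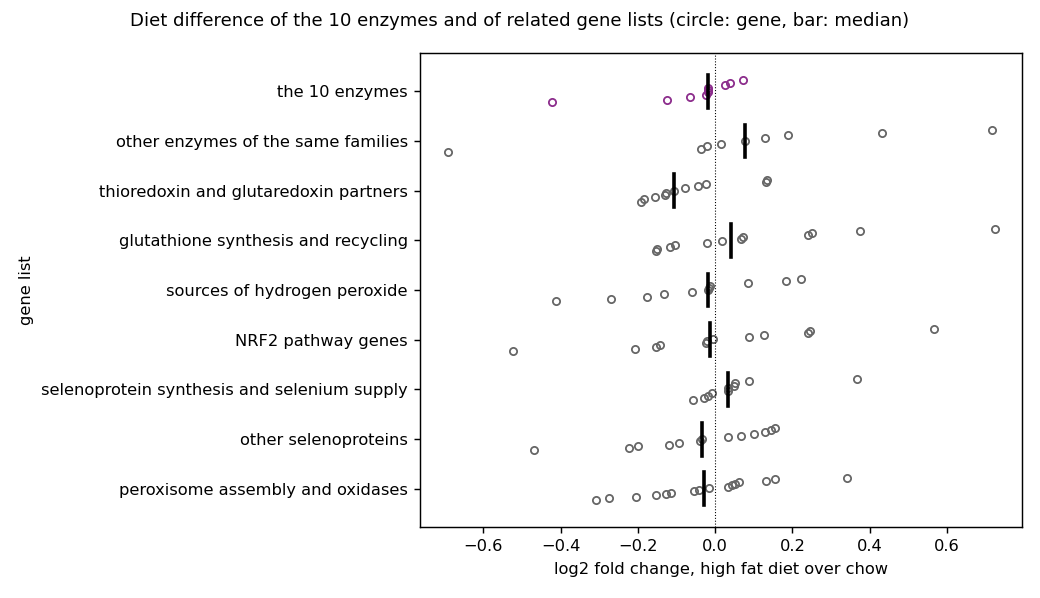
Log2 fold change of the high fat diet over chow (x axis) for the 10 enzymes and the measured genes of 8 related lists (y axis), with a circle per gene and a bar at each median. The medians lie between -0.11 and 0.078, and 9 of the 10 enzymes lie between -0.12 and 0.073.

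Markers of other cell types were summed per library. The erythroid sum was 62.5, 66.2 and 103 CPM on the high fat diet and 94.7 and 31.8 CPM on chow, and its genes Hba-a1 and Hba-a2 are near-identical copies between which reads can be split: Hba-a1 had 52.5 CPM in high fat diet replicate 10, with 2.08 CPM or less in each other library. Red cells are rich in catalase and Gpx1. Gpx1 was highest in high fat diet replicate 10, where Cat was at 92.6 CPM, against 90.8 to 94.7 CPM elsewhere. Macrophage markers summed to 982, 1059 and 1414 CPM on the high fat diet and to 1197 and 919 CPM on chow, and neutrophil markers to 4.27, 4.38 and 18.3 CPM on the high fat diet and to 9.05 and 5.99 CPM on chow. Skeletal muscle markers summed to 1450.2, 1229 and 834 CPM on the high fat diet and to 1571 and 591 CPM on chow. Fibroblast markers summed to 2118 to 3605 CPM on the high fat diet and to 2464 to 2862 CPM on chow. Endothelial markers summed to 410 to 506 CPM on the high fat diet and to 340 to 422 CPM on chow. The C cell markers Calca, Calcb and Chga summed to 232 to 542 CPM on the high fat diet and to 285 to 289 CPM on chow. Of these, Chga was at 123 CPM in chow replicate 2 and at 0.901 CPM in chow replicate 8. The parathyroid markers Pth and Gcm2 were not among the genes listed. All the sums named so far overlapped between the diets. The adipocyte and thyroid follicular sums were lower on the high fat diet without overlap, the second at 175352, 147661 and 104006 CPM on the high fat diet and at 190039 and 237779 CPM on chow, and the follicular sum was almost all Tg. Of the 8 follicular markers, 0 passed in edgeR, as over all genes. In the lower direction 3 did not overlap (Tg, Tshr and Pax8), where 10.3% of all genes did so. In the higher direction 3 did not overlap (Slc5a5, Foxe1 and Nkx2-1), where 10.6% of all genes did so. Slc5a5, the iodide transporter, named with the others after its values were seen, stood at 52.9, 44.6 and 66.3 CPM on the high fat diet and at 21.5 and 21.2 CPM on chow. Its difference of 1.36 on the log2 scale (SE 0.17) had an adjusted p of 0.0731 in edgeR and of 5.13e-09 in DESeq2. Foxe1 and Nkx2-1, thyroid transcription factors, had 0.78 and 0.36. The airway sum was higher on the high fat diet, with 814 CPM as its lowest value on the high fat diet and 811 CPM as its highest on chow. Their part in the enzymes' values was not tested.

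By position, the enzymes lie on 9 chromosomes in GENCODE M21 (GRCm38, the mm10 assembly), and all are protein coding. Prdx1 spans chr4:116685544-116700822 on the plus strand, and Gpx4 spans chr10:80047166-80056439, also on the plus strand. Gpx3, the gene with the largest difference, spans chr11:54902453-54910377 on the plus strand. RefSeq lists pseudogenes named for Gpx4, Prdx1 and Prdx6, namely Gpx4-ps1, Gpx4-ps2, Prdx1-ps and Prdx6-ps2. Counting can split reads between a gene and such a copy, so the levels of these 3 genes are uncertain to that extent. How many reads were split was not tested.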

How the data were processed

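Total RNA of thyroid glands was made into stranded libraries, per the labels' protocols. The submitters' processing notes name HISAT2, StringTie, DESeq2 and mm10, with no role or strand setting. For 16413 genes, none with a count under 1, the files deposited by the authors hold whole-number read counts, FPKM, normalized log2 values and a table of signed fold scores (chow over high fat diet) with p-values. The score and p-value columns are the authors' own. Columns were matched by diet and number, and 3 columns of per-sample counts of no sample here were not used.

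Counts were tested with edgeR 4.0.16 in R 4.3.3 (TMM, filterByExpr, robust quasi-likelihood fit on diet), leaving 15765 genes after 648 were removed. The threshold was an adjusted p of 0.05. CPM uses TMM-scaled totals, and intervals are 95%. Total counts were 43494747 to 52663677 per library. The intervals rest on edgeR's estimate of the spread among 3 high fat diet and 2 chow libraries. Replicates were compared pairwise, and none differed by less than sampling noise. Alternatives were RLE and upper-quartile factors, library totals alone, no filter, a stricter filter (1 CPM), DESeq2 1.42.0, limma 3.58.1 with voom or on log2(FPKM + 1), no robust shrinkage, and leaving out each library, with CPM in place of FPKM and a sum without the highest enzyme for the shares. The edgeR step was tested on simulated counts. The enzymes, lists and tests were chosen with earlier results of these data known. Named genes were all 10 enzymes, up to 4 genes of smallest p per related list, 2 markers of highest level per cell type where a result turned on them, and the 5 profiles nearest to that of the highest enzyme. List genes under older symbols were matched by gene ID. Some genes of the related lists are not reported here.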

Additional observations from a re-analysis of the deposited data

How the results depend on the processing

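Of 140 values (10 enzymes under 14 alternatives), 118 kept their sign and 22 reversed, 12 of these when 1 library was left out, and 0 passed the threshold. With library totals alone and with limma on log2(FPKM + 1), the log2 fold changes were 0.061 and 0.056 for Gpx4, 0.017 and 0.014 for Prdx1, 0.060 and 0.058 for Cat, 0.065 and 0.062 for Sod1, 0.064 and 0.059 for Sod2, and 0.029 and 0.023 for Secisbp2. Both settings leave out the TMM factors, which were 0.9829, 1.022 and 1.069 on the high fat diet and 0.993 and 0.9386 on chow. With library totals alone the median over all genes moved too, from 0.012 to 0.097. The part of the factors in each reversal was not tested. Leaving out 1 library, Gpx1 ran from -0.055 to 0.13, Gpx3 from -0.52 to -0.32, Gpx4 from -0.14 to 0.042, Prdx5 from -0.085 to 0.14, Prdx6 from -0.15 to 0.34, Sod1 from -0.092 to 0.036, Sod2 from -0.086 to 0.048, Sesn2 from -0.41 to 0.058, Secisbp2 from -0.13 to 0.016, Lrp8 from -0.031 to 0.20 and Trnau1ap from -0.018 to 0.083. Where a chow library was left out, the remaining one was assumed to vary like the high fat diet libraries. Of 434 values for 31 genes of the related lists, 426 kept sign and side, and Txnrd3 passed in DESeq2. The adjusted p of Gpx3 was between 0.204 (DESeq2) and 1.000 over the 14 alternatives.

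Over all genes DESeq2 called 49 higher and 47 lower where edgeR called 0, and leaving out 1 library edgeR called 0 to 2 higher and 0 to 3 lower. The cause was not tested. The enzymes' shares of their sum changed by construction. On CPM in place of FPKM they were 32.7% for Prdx1, 20.4% for Gpx4, 8.62% for Sod1, 6.15% for Prdx5, 3.84% for Gpx1, 7.05% for Cat, 7.36% for Txnrd1, 3.14% for Gpx3, 6.68% for Sod2 and 4.01% for Prdx6. Without Prdx1 in the sum they were 37.0% for Gpx4, 23.1% for Sod1, 15.5% for Prdx5, 6.37% for Gpx1, 4.80% for Cat, 3.74% for Txnrd1, 3.58% for Gpx3, 3.03% for Sod2 and 2.92% for Prdx6.

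No paired analysis was run because the labels give no pairing of high fat diet and chow libraries. With 3 and 2 libraries, the intervals of the enzymes allow differences of up to about a fold of 0.775 or 1.33 outside Gpx3. Protein and enzyme activity were not measured.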
